A study of Mus musculus with 180 samples.

Results

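The comparison is that of the small intestine with the colon in mice given PBS, across all genes of the deposited table. It rests on 8 of the 180 libraries of the series, 1 small intestine and 1 colon library from each of 4 mice, and each tissue pair came from 1 animal. The mice were female C57BL/6J animals of 6 weeks that received PBS and were perfused through the heart with PBS and EDTA before tissues were taken at 12 hours. The labels name the tissues without the segment, so whether duodenum, jejunum or ileum, and which part of the colon, was sampled is not known. The other 4 small intestine and 4 colon libraries used here came from C57BL/6J mice (mice 5 to 8) of the same age and sex that were given 5 mg/kg lipopolysaccharide (LPS), a bacterial cell wall component, and perfused in the same way. The small intestine was lysed in M tubes on a gentleMACS device and the colon with ceramic beads, per the labels' protocols, so lysis and tissue cannot be told apart in any result below. The assay tags the 3′ ends of polyadenylated RNA, so a signal counts transcript ends and does not grow with transcript length.

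The small intestine digests and absorbs. Its villi carry enterocytes with a brush border of hydrolases and nutrient transporters, and its crypts end in Paneth cells, which secrete antimicrobial peptides. The colon has no villi and, in the mouse, few or no Paneth cells. It recovers salt and water, takes up the short-chain fatty acids that bacteria make from fibre, and covers itself with thick mucus from goblet cells. In bulk tissue, fewer cells of a type and less RNA per cell cannot be told apart, and this holds for every gene group described here.

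Total counts were 1051216 to 2197197 in the small intestine libraries and 643524 to 844470 in the colon libraries, and 1 count stood for a signal of 0.525 to 1.01 and of 1.02 to 1.29, respectively. Signals (counts as the authors scaled them) are given below for mice 1, 2, 3 and 4 in that order, and differences are log2(signal + 1) in small intestine minus colon with their standard error (SE), fitted by limma with the mouse as a block. Of 13249 genes tested, 2846 were higher in the small intestine (21.5%) and 2346 in the colon (17.7%) at a Benjamini-Hochberg adjusted p below 0.05, 39.2% in all. The libraries of both tissues did not overlap for 4881 genes (36.8%). Of the called genes, 2813 differed by less than 2-fold, while 389 were at least 4-fold higher in the small intestine and 191 at least 4-fold higher in the colon. The split between directions depends on which scaling is used. Scaling by median ratios over genes kept it, with 2795 genes higher in the small intestine and 2463 in the colon. So did edgeR, with 2786 and 2562. The 50 highest genes took 30.5% to 33.4% of the signal in small intestine libraries and 21.7% to 23% in colon libraries. With pancreatic genes removed and every library set to the same sum, 1672 genes were called higher in the small intestine and 4618 in the colon, with the median difference over all genes moving from -0.002 to -0.336. Differences of about that size or smaller on the small intestine side therefore take their sign from the scaling. Of the genes named below that were called, Mep1a and Acadm turned their sign under equal sums and Gucy2c, Hnf4a, Igha, Jchain and Slc10a2 lost their call on the small intestine side. Of those not called, Apobec1, Irf7, Lgals4, Mcm2, Nr1h4, Rrm2, Slc12a2, Slc9a3 and Tff3 turned their sign, and Cdx2, Chga, Epcam, Irf7, Lgals4, Mylk, Slc12a2, Tff3 and Zg16 were called higher in the colon.

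The labels held against defining markers, which were chosen with earlier results of these data known. All 10 small intestine markers, among them Lct, Sis, Alpi and Fabp2, were higher in the libraries labelled small intestine, and all 10 colon markers, among them Car1, Aqp8 and Hoxb13, in those labelled colon, without overlap for any of the 20. Their summed signals were 24198 to 32011 and 733 to 1010 for the small intestine markers and 197 to 277 and 4181 to 8993 for the colon markers, in small intestine and colon in turn. Genes of intestinal epithelium at large were high in both, though not all were level. Of 10 such genes 4 were called higher in the small intestine and 2 in the colon, and 3 and 6 under equal sums. Among the 4 not called were Epcam and Cdx2. Epcam, a surface protein of epithelial cells, ran at 1308, 1375, 1267 and 1180 in small intestine and 1584, 1465, 1210 and 1408 in colon. Cdx2, a transcription factor that specifies intestinal identity, ran at 89.4, 65.1, 85 and 60.4 in small intestine and 89.9, 93.6, 64.3 and 94.4 in colon. Neither was called (log2 -0.14, SE 0.085, and -0.19, SE 0.15).

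A low level in the opposite tissue could not always be set apart from a level shared by all tissues of the series. Among 170 genes at least 8-fold higher in the small intestine (called, without overlap, with a mean signal of at least 10 there and none of them pancreatic), the colon mean lay at or below the highest mean of the 13 other tissues of the same mice in 147 cases and at or below their median in 63. Among 71 such genes at least 8-fold higher in the colon, the small intestine mean lay at or below the highest of those tissues in 60 cases and at or below their median in 31. Alb, the plasma albumin made by the liver, ran at 325, 329, 344 and 348 in small intestine and 552, 499, 569 and 598 in colon, against a median of 490 over the 13 other tissues. Whether such low levels come from RNA of the tissue itself was not tested.

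**Figure D1:**
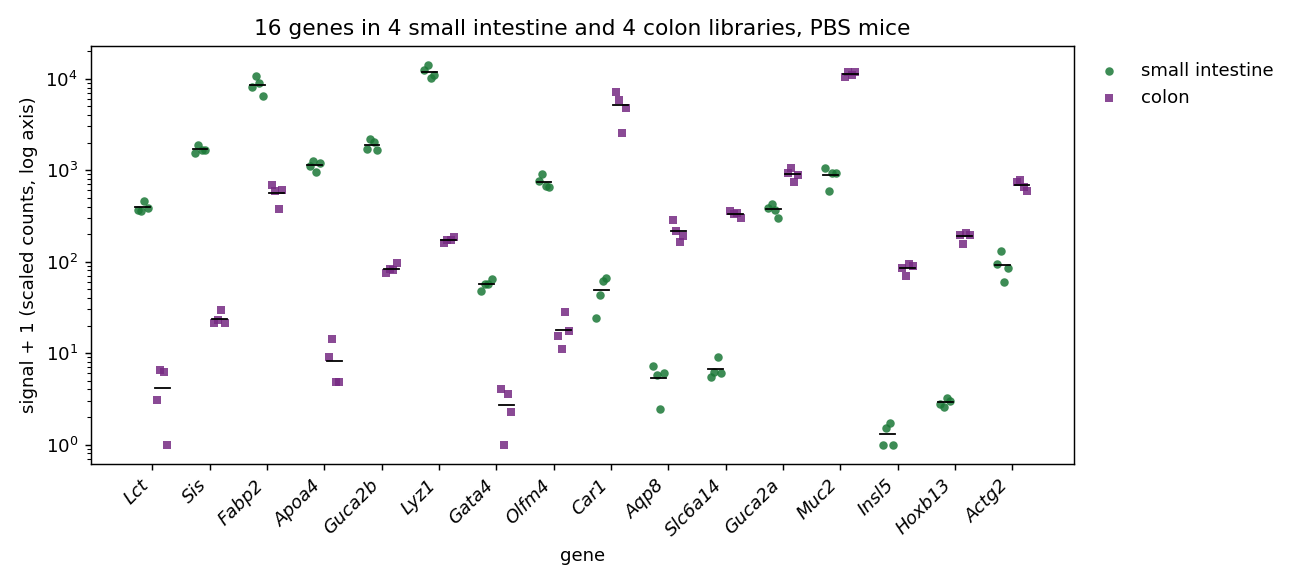
Signal on a log axis (signal + 1) of 16 genes in each of the 4 small intestine libraries (circles) and 4 colon libraries (squares) of PBS mice, with a bar at each group's mean. The first 8 genes sit higher in every small intestine library and the last 8 higher in every colon library, for example Lct at 352 to 459 against 0 to 5.57 and Car1 at 23 to 64.4 against 2574 to 7089.

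Stretches upstream of 6 genes called between the tissues are shown because they hold motifs of 2 factor families, HNF4 and GATA, of which Hnf4g and Gata4 differ between the tissues. They are the 250 bases before the annotated start in the RefSeq annotation of GRCm38.p6 (mm10), written 5′ to 3′ on the gene's strand. Capitals mark the HNF4 motif CAAAGTNCA on either strand in the first 4 and the GATA motif AGATAA on either strand in the last 2.
Apoa4: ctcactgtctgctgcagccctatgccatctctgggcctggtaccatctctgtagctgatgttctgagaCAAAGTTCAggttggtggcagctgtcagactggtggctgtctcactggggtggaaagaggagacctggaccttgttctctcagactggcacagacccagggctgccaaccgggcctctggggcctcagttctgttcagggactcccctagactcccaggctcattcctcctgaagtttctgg
Fabp2: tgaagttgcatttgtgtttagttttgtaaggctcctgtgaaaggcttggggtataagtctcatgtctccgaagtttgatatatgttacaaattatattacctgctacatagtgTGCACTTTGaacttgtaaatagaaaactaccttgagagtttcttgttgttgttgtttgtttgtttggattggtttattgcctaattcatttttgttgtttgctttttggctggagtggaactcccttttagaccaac
Rbp2: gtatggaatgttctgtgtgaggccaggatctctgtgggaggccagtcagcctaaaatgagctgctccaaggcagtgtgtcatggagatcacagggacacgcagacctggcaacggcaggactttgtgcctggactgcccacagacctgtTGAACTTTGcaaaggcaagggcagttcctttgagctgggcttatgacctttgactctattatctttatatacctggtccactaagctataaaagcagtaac
Treh: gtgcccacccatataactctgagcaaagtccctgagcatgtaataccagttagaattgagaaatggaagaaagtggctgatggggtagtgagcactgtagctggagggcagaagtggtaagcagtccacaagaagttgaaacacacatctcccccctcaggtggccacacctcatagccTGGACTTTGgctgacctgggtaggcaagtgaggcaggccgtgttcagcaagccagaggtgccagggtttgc
Lct: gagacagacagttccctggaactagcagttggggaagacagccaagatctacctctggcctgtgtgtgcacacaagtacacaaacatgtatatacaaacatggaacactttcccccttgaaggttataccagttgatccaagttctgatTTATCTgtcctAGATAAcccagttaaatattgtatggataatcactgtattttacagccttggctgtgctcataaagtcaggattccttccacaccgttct
Muc2: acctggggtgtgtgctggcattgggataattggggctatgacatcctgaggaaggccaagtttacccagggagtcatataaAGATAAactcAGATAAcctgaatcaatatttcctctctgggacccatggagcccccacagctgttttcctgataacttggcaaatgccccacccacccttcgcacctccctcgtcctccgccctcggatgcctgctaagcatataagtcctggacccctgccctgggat
Apoa4 lies on chromosome 9 (chr9:46240594-46240843, plus strand), as do Rbp2 (chr9:98490287-98490536, plus) and Treh (chr9:44672983-44673232, plus). Fabp2 lies on chromosome 3 (chr3:122894822-122895071, plus), Lct on chromosome 1 (chr1:128328319-128328568, minus) and Muc2 on chromosome 7 (chr7:141690090-141690339, plus). The HNF4 match starts 182, 137, 101 and 71 bases before the start of Apoa4, Fabp2, Rbp2 and Treh, and both the Lct and the Muc2 stretch hold 2 GATA matches. Of 10061 tested genes with an upstream entry, 1.21% held the HNF4 motif and 6.55% the GATA motif. The next shares are over called genes without overlap, with a mean signal of at least 10 in the higher tissue and without pancreatic genes. Of 127 such genes at least 8-fold higher in the small intestine, the motifs stood in 6.3% (8 genes) and 17.3% (22 genes), and of 50 at least 8-fold higher in the colon in 0 and in 10.0% (5 genes). GTTAAT, a part of the HNF1 site, stood in 13.4% and 16% of these sets against 4.41% of all, and the CDX motif TTTATG in 14.2% and 16% against 6.6%. All motifs were searched on both strands, no motif contains another, and a match is a run of letters rather than a bound site. The part of base composition in these shares was not tested.

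The brush border hydrolases, which finish the digestion of sugars, peptides and lipids at the enterocyte surface, were higher in the small intestine in 19 of 19 cases (median difference 4.60, against -0.002 over all genes), 18 of them under equal library sums. Lactase, Lct, which splits milk sugar, had signals of 364, 352, 459 and 384 in small intestine and 2.04, 5.57, 5.14 and 0 in colon. The sucrase-isomaltase gene Sis ran at 1548, 1880, 1671 and 1670 in small intestine and 20.4, 22.3, 28.3 and 20.1 in colon (log2 6.16, SE 0.10, adjusted p = 5.8e-19). Trehalase, Treh, ran at 70.8, 82.4, 82.8 and 104 in small intestine and 1.02, 1.11, 0 and 0 in colon. The tissues did not overlap for any of these 3. Among the peptidases, Anpep (aminopeptidase N), Enpep and Dpp4 differed by 5.65, 5.13 and 3.5, and the alkaline phosphatase Alpi and the ceramidase Asah2 by 5.5 and 5.56. The maltase-glucoamylase gene Mgam held 999 ± 88.9 in small intestine and 78.9 ± 7.62 in colon (SD, n = 4), a difference of 3.65. The meprin subunit genes parted. Mep1b was higher in the small intestine (3.23), whereas Mep1a was almost level, at 205, 256, 304 and 244 in small intestine and 223, 205, 183 and 205 in colon. Its adjusted p of 0.0489 passed the threshold narrowly and rose to between 0.0732 and 0.374 without mouse 2, 3 or 4. Under equal sums its difference was -0.077.

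Transporters of sugars, amino acids and peptides were called in all 18 cases, 15 higher in the small intestine and 3 in the colon (median 2.89). The sodium-glucose cotransporter Slc5a1 ran at 893, 1034, 1128 and 1043 in small intestine and 79.7, 75.8, 77.1 and 81.9 in colon (log2 3.68, SE 0.093, adjusted p = 2e-16). The basolateral glucose carrier Slc2a2 and the fructose carrier Slc2a5 differed by 5.01 and 4.13. The peptide transporter Slc15a1 differed by 2.26, with a colon level of 50.9 ± 11.6 that stood above the 2.78 to 22.6 of the other tissues. Carriers of neutral and basic amino acids, Slc6a19, Slc7a9 and Slc6a20a, were higher by 5.11, 4.1 and 3. The 3 that were higher in the colon were Slc6a14, Slc2a1 and Slc36a1. Slc6a14, a broad amino acid transporter driven by sodium and chloride, ran at 4.43, 5.25, 8.06 and 5.03 in small intestine and 360, 332, 341 and 300 in colon (log2 -5.67, SE 0.16, adjusted p = 8.6e-16). Slc2a1, the glucose carrier of many tissues, was higher in colon by 2.68 on the log2 scale, so that the 2 glucose carriers Slc2a2 and Slc2a1 stood on opposite sides. The call of Slc36a1 (-0.49), a proton-driven amino acid carrier, was lost without mouse 1, 3 or 4 (adjusted p 0.0595 to 0.115).

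Genes of fat absorption and of chylomicron assembly, the packing of dietary fat into lipoproteins, were higher in the small intestine in 23 of 28 cases and in the colon in 2 (median 4.04). The apolipoprotein gene Apoa4 had the largest difference of the list, with signals of 1106, 1265, 947 and 1185 in small intestine and 8.18, 13.4, 3.86 and 3.78 in colon (log2 7.24, SE 0.18, adjusted p = 1.2e-16). The transfer protein gene Mttp, which loads lipid onto apolipoprotein B, ran at 708, 931, 764 and 791 in small intestine and 13.3, 10.0, 3.86 and 12.6 in colon. Apob itself held 387 ± 31.8 in small intestine and 17.5 ± 4.31 in colon (SD, n = 4). The sterol carriers differed as well. Npc1l1, which takes up cholesterol, was higher by 5.86, and the paired transporters Abcg5 and Abcg8, which return sterols to the lumen, by 4.61 and 5.11 (Abcg8 by 5.85 without mouse 4). Resynthesis enzymes were higher in the small intestine, with Mogat2 at 5.47 and Dgat1 at 3.06, and more narrowly Dgat2 at 1.29. The fatty acid translocase Cd36 and the lipid droplet coat gene Plin2 were the 2 higher in colon, Cd36 at 121, 114, 135 and 123 in small intestine and 156, 174, 180 and 170 in colon (-0.46). Plin2 was higher there by 0.32 on the log2 scale, a call lost without mouse 1 or 4 (adjusted p = 0.22 and 0.143). Apobec1, which edits the Apob transcript, showed 47.8, 61.4, 35.9 and 47.3 in small intestine and 67.4, 49, 36 and 37.8 in colon and was not called (0.036, SE 0.16).

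The intestinal fatty acid-binding proteins separated by their colon level. Fabp2 ran at 8023, 10574, 8885 and 6510 in small intestine and 681, 594, 379 and 611 in colon (log2 3.92, SE 0.13, adjusted p = 1.9e-14), and its colon level lay above the 34.4 to 327 of the 13 other tissues. Fabp1 ran at 2969, 3855, 3100 and 3314 in small intestine and 47, 76.9, 75.8 and 85.6 in colon (log2 5.54, SE 0.10, adjusted p = 2.7e-18), with a colon level close to the median of 73.8 over those tissues. Fabp6, which binds bile acids in ileal cells, ran at 1361, 1576, 1139 and 1103 in small intestine and 6.13, 14.5, 19.3 and 15.1 in colon (log2 6.54, SE 0.19, adjusted p = 1.4e-15), and its colon values lay about the top of the 3.82 to 13.1 range.

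Bile acid genes were higher in the small intestine in 8 of 10 cases and in the colon in 1 (median 1.80). Fgf15, the hormone with which the ileum restrains bile acid synthesis in the liver, was detected in each small intestine library, at 17.7, 24.7, 35.9 and 22.1, and was at 0 in all 4 colon libraries. It was at least 28.6-fold higher against the floor of 3 counts over the 4 colon libraries. The uptake carrier Slc10a2 itself differed little, at 76.2, 101, 111 and 86.6 in small intestine and 59.3, 49, 48.8 and 75.6 in colon (log2 0.69, SE 0.16, adjusted p = 0.00154). The bile acid receptor gene Nr1h4 was not called (0.091, SE 0.17). The basolateral exporter subunits Slc51a and Slc51b were higher by 1.9 and 1.7. Slc51a held 335 ± 33 in small intestine and 89.5 ± 14.1 in colon (SD, n = 4). Abcc3, another basolateral exporter, was the 1 higher in the colon, at 18.6, 13.6, 24.2 and 18.1 in small intestine and 63.4, 64.6, 50.1 and 71.8 in colon (-1.71). The ileal genes Fabp6 and Fgf15 and the proximal genes Gip and Lct were thus all present in the same 4 small intestine libraries.

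Vitamin and mineral genes were higher in the small intestine in 17 of 23 cases and in the colon in 3 (median 1.17), and in 14 and 4 under equal sums. The retinoid-handling genes Rbp2 and Rdh7 differed by 5.59 and 5.08, with Rbp2 at 355, 525, 437 and 553 in small intestine and 6.13, 11.1, 9 and 8.82 in colon. Cubn and Amn, the 2 parts of the receptor for vitamin B12 bound to intrinsic factor, differed by 4.65 and 3.29, and the folate carrier Slc46a1 by 2.3. For iron, the importer Slc11a2 was not called (0.4, SE 0.20) and the oxidase Heph was higher in the small intestine (1.17). The exporter Slc40a1 was higher in the colon, at 54, 67.2, 32.2 and 58.4 in small intestine and 78.7, 86.9, 116 and 115 in colon (log2 -0.92, SE 0.18, adjusted p = 0.00041). The metal-binding metallothioneins Mt1 and Mt2 were the other 2 on the colon side (-0.74 and -0.89).

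Genes of nitrogen metabolism showed a like split, with 12 of 16 genes higher in the small intestine and 1 in the colon (median 2.07). Cps1 and Otc, which make carbamoyl phosphate and citrulline, were both on that side. Cps1 ran at 378, 466, 352 and 364 in small intestine and 26.6, 24.5, 23.1 and 25.2 in colon. Otc ran at 160, 233, 175 and 168 in small intestine and 16.4, 15.6, 15.4 and 11.3 in colon. The next enzymes of the urea cycle did not. Ass1, which uses citrulline, was higher in the colon, at 23.9, 17.3, 21.2 and 24.2 in small intestine and 52.1, 59.1, 54 and 69.3 in colon (log2 -1.4, SE 0.17, adjusted p = 1.7e-06). The following enzyme gene Asl was not called (-0.0077, SE 0.23). Adenosine deaminase, Ada, was higher in the small intestine by 5.21, and Arg2 and Oat, which act on arginine and ornithine, by 4.67 and 2.32.

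Genes of ion and water transport were divided, with 20 of 39 higher in the colon and 13 in the small intestine (median -0.25), and 23 and 10 under equal sums. The carbonic anhydrases, which supply bicarbonate and protons, were higher in the colon in 4 of 4 listed cases. Car1 ran at 23, 42, 60.8 and 64.4 in small intestine and 7089, 5913, 2574 and 4768 in colon (log2 -6.72, SE 0.26, adjusted p = 1.4e-13). Car2 held 71.8 ± 20.6 in small intestine and 595 ± 69.9 in colon (SD, n = 4). Car4 held 111 ± 13.6 in small intestine and 492 ± 24.2 in colon (SD, n = 4). Car12 held 1308 ± 102 in small intestine and 1551 ± 132 in colon (SD, n = 4), a call that was lost without mouse 1, 3 or 4 (adjusted p 0.0604 to 0.201). The water channels Aqp8 and Aqp4 differed by -5.4 and -2.74, with Aqp8 at 6.2, 4.72, 1.47 and 5.03 in small intestine and 283, 217, 165 and 190 in colon. Atp12a, the proton-potassium pump of the colon, ran at 0, 0.525, 1.47 and 2.01 in small intestine and 103, 55.7, 87.4 and 73 in colon (log2 -5.43, SE 0.33, adjusted p = 1.1e-10). Aldosterone-sensitive salt uptake had its parts on the colon side. The 3 subunit genes of the epithelial sodium channel differed by -2.62 (Scnn1a), -1.96 (Scnn1b) and -2.03 (Scnn1g). Scnn1b and Scnn1g rested on few counts, with colon signals of 8.18, 3.34, 6.43 and 17.6 and 9.2, 4.46, 6.43 and 6.3. Without mouse 4 the difference of Scnn1b was -1.21. Hsd11b2, which shields the mineralocorticoid receptor from glucocorticoids, ran at 23.9, 15.2, 21.2 and 27.2 in small intestine and 323, 344, 332 and 409 in colon. The receptor gene Nr3c2 differed by -0.87, a call lost without mouse 2 (adjusted p = 0.0671). The sodium-proton exchanger Slc9a3 and the chloride entry pathway Slc12a2 were not called (0.25, SE 0.16, and 0.093, SE 0.11). The anion exchangers stood on opposite sides, Slc26a6 higher in the small intestine (5.16) and Slc26a3 in the colon (-1.13), and so did the related genes Clca4b (5.4) and Clca1 (-2.01). The calcium-gated chloride channel genes Best2 and Ano1 were higher in the colon (-4.67 and -2.99), and Ano1 also marks the pacemaker cells of the muscle layer.

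The guanylin peptides, which signal through the receptor guanylate cyclase C to drive fluid secretion, were reversed with respect to each other. Guca2b, uroguanylin, ran at 1717, 2161, 2049 and 1648 in small intestine and 74.6, 81.3, 81 and 94.4 in colon (log2 4.49, SE 0.1, adjusted p = 3.3e-17). Guca2a, guanylin, ran at 389, 430, 369 and 300 in small intestine and 929, 1057, 738 and 892 in colon (log2 -1.28, SE 0.093, adjusted p = 1.9e-09). No library of one tissue overlapped the other for either gene. The receptor gene Gucy2c differed by less, at 113, 142, 132 and 143 in small intestine and 89.9, 94.7, 75.8 and 102 in colon (0.55, and 0.18 under equal sums).

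Mucus and goblet cell genes were higher in the colon in 22 of 29 cases and in the small intestine in 4 (median -1.29), and 24 and 3 under equal sums. The gel-forming mucin Muc2 ran at 1052, 586, 925 and 932 in small intestine and 10473, 11933, 10964 and 11749 in colon (log2 -3.72, SE 0.12, adjusted p = 9.1e-15). The goblet cell protease Clca1 ran at 488, 583, 484 and 539 in small intestine and 1504, 1757, 4067 and 1813 in colon, with the colon of mouse 3 above the other 3. Retnlb, a goblet cell peptide that acts on bacteria, ran at 0, 5.25, 0.733 and 3.02 in small intestine and 48, 56.8, 332 and 51.6 in colon, again with mouse 3 far above the rest. Its difference was -5.03, against -4.18 without mouse 3 and -5.64 without mouse 2. Glycosyltransferases, which build sugar chains, were mostly on the colon side, B3gnt6 by 4.67, B3gnt7 by 3.43, Gcnt3 by 2.84, Fut2 by 4 and St6galnac6 by 4.71 on the log2 scale. B4galnt2 and St3gal4 stood on the other side, at 2.53 and 2.16. Transcription factors of secretory cells were higher in the colon as well, with Atoh1 at 13.3, 16.3, 16.9 and 13.1 in small intestine and 48, 88, 56.6 and 51.6 in colon. Spdef held 11.1 ± 3.03 in small intestine and 45.1 ± 14 in colon (SD, n = 4). Other goblet cell products did not follow Muc2. Tff3, at 1083, 1175, 912 and 960 in small intestine and 933, 967, 972 and 968 in colon, was not called (0.098, SE 0.086). Zg16, at 2412, 2688, 2288 and 2212 in small intestine and 2793, 2723, 2357 and 2932 in colon, was not called either (-0.17, SE 0.088). Spink4 was higher in the small intestine (0.75).

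**Figure D2:**
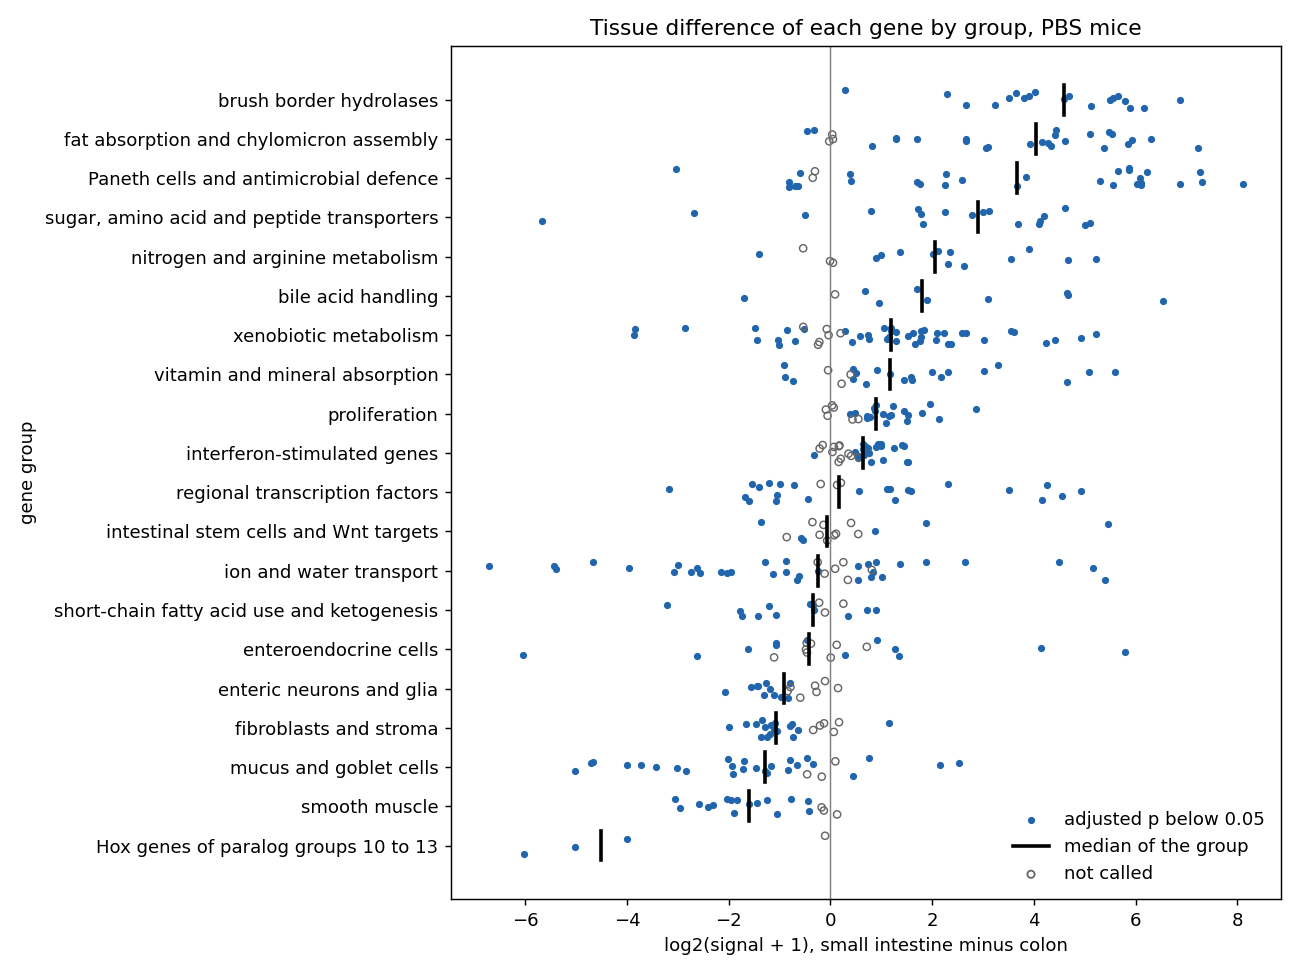
Log2 difference of each listed gene, small intestine minus colon, for 20 gene groups (each point 1 gene, filled where the adjusted p was below 0.05, bar at the group's median). Brush border, fat absorption and Paneth cell groups lie far to the right with medians of 4.60, 4.04 and 3.66, and smooth muscle, mucus and the posterior Hox genes to the left with -1.60, -1.29 and -4.51.

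Most Paneth cell and antimicrobial genes were higher in the small intestine. Of 31 listed genes, 23 were higher in the small intestine and 6 in the colon (median 3.66). All 19 alpha-defensin genes of the table, which encode the pore-forming peptides of Paneth cell granules, were higher in the small intestine, and their summed signal was 55641 to 70844 there, 5.03% to 6.26% of all signal, against 713 to 927 in colon. That colon sum lay within the 435 to 1171 of the 13 other tissues. Defa2 had the largest single difference, with signals of 1239, 1224, 1000 and 964 in small intestine and 3.07, 2.23, 1.29 and 2.52 in colon (log2 8.42, SE 0.14, adjusted p = 6.6e-19). Defa24 had the highest level of the family, at 26912, 28134, 21876 and 22380 in small intestine and 387, 331, 434 and 369 in colon (log2 6.02, SE 0.10, adjusted p = 6.9e-19). The defensin genes are near-identical copies, so the share counted to each is uncertain. Lyz1, the Paneth cell lysozyme, ran at 12523, 14125, 10255 and 10914 in small intestine and 160, 172, 171 and 184 in colon. Itln1, a lectin of Paneth and goblet cells, held 3136 ± 388 in small intestine and 45.7 ± 11.5 in colon (SD, n = 4). Mmp7, the protease that activates defensins, held 212 ± 11.2 in small intestine and 17 ± 6.98 in colon (SD, n = 4). The lectins Reg3b and Reg3g, which kill or hold back bacteria, were higher in the small intestine by 1.71 and 2.25. The colon signals of Reg3g were 78.7, 81.3, 107 and 74.3 and lay within the 45.1 to 109 of the other tissues. Ang4, a bactericidal ribonuclease, ran at 775, 863, 722 and 705 in small intestine and 60.3, 133, 753 and 102 in colon. The colon of mouse 3 reached the small intestine's range while the other 3 did not, and the difference was 2.27, or 3.04 without mouse 3.

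The 6 listed antimicrobial genes higher in the colon were led by Saa1, a serum amyloid A protein, at 116, 99.7, 118 and 94.6 in small intestine and 918, 746, 847 and 1059 in colon (log2 -3.04, SE 0.10, adjusted p = 2e-14). They include the oxidase Duox2 (-0.81, a call lost without mouse 3, adjusted p = 0.0727) and Lypd8, which coats flagellated bacteria (-0.6). Saa2, Saa3 and Lcn2 were also called on that side (-0.81, -0.65 and -0.69), yet their levels in both tissues lay within the range of the 13 others, Saa3 at 277, 286, 299 and 310 in small intestine and 495, 422, 455 and 465 in colon against 245 to 648. Mptx1, a pentraxin gene outside the list, ran at 17.7, 67.7, 22 and 17.1 in small intestine and 1255, 1516, 6412 and 1506 in colon (log2 -6.26, SE 0.32, adjusted p = 8.7e-12), with the colon of mouse 3 again the highest. The difference was -5.64 without mouse 3 and -6.86 without mouse 2.

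Hormone genes of the enteroendocrine cells fell on both sides, with 6 of 20 higher in each tissue, and 5 against 10 under equal sums. Gip, the glucose-dependent insulinotropic peptide of the upper gut, ran at 77.9, 87.7, 82.8 and 76.5 in small intestine and 0, 0, 3.86 and 0 in colon. Ghrl, ghrelin, ran at 17.7, 21.5, 27.1 and 17.1 in small intestine and 0, 0, 0 and 1.26 in colon. Nts, Cck and Sct (neurotensin, cholecystokinin and secretin) were higher in the small intestine by 1.36, 1.28 and 0.91. In the colon, Insl5, a hormone of colonic L cells, ran at 0, 0.525, 0.733 and 0 in small intestine and 84.8, 69.1, 92.5 and 89.4 in colon (log2 -6.05, SE 0.31, adjusted p = 7.8e-12). Pyy, peptide YY, ran at 15.9, 13.1, 19.1 and 12.1 in small intestine and 100, 106, 79.7 and 102 in colon (log2 -2.62, SE 0.18, adjusted p = 6.4e-10). Gcg, which encodes the glucagon-like peptides made in the same cells, differed far less, at 53.1, 58.3, 63 and 65.4 in small intestine and 86.9, 94.7, 79.7 and 71.8 in colon (-0.46), and lost its call without mouse 1 or 2 (adjusted p = 0.0654 and 0.067). Tph1, the enzyme of serotonin synthesis in enterochromaffin cells, was higher in the colon (-1.08), and the general granule gene Chga was not called (-0.38, SE 0.21), though without mouse 3 it was called higher in the colon (-0.74, adjusted p = 0.00317). Of 9 tuft cell genes tested, 0 were called by limma, 0 had an unadjusted p below 0.05, and 0 were called by edgeR or DESeq2. Over all genes limma called 39.2%. The means of both guts lay within the range of the 13 other tissues for all 9. Summed tuft cell signals were 92.3 to 118 in small intestine and 83.6 to 108 in colon, against a median of 178 in those tissues. These counts therefore do not show that tuft cells are equal in both.

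Regional transcription factors were called in 23 of 26 cases, 12 higher in the small intestine and 11 in the colon. Gata4, which sets jejunal against ileal identity, ran at 46.9, 55.6, 55.7 and 63.4 in small intestine and 3.07, 0, 2.57 and 1.26 in colon (log2 4.55, SE 0.34, adjusted p = 3e-09). Hnf4g, a nuclear receptor of enterocytes, ran at 69.1, 71.4, 81.3 and 83.6 in small intestine and 3.07, 1.11, 0 and 3.78 in colon (log2 4.93, SE 0.33, adjusted p = 6e-10). Gata5, Onecut2 and Maf were higher in the small intestine by 4.25, 4.16 and 3.52, and Hnf4a, the paralog of Hnf4g, by 0.57. On the colon side, the caudal factor Cdx1 ran at 156, 152, 144 and 116 in small intestine and 361, 349, 306 and 302 in colon (-1.21), while its paralog Cdx2, given above, was not called. Foxa1, Foxa3, Klf5 and Tcf7l2 were higher in the colon by 1.54, 1.68, 0.98 and 1.06 on the log2 scale. The forkhead gene Foxd2 ran at 0, 1.05, 0 and 0 in small intestine and 35.8, 44.6, 30.8 and 44.1 in colon.

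The Hox genes, which record position along the body, were higher in the colon wherever they were called. Of paralog groups 1 to 9, 7 of 10 tested were called (median -1.85), and of groups 10 to 13, 3 of 4 (median -4.51). Hoxb13 ran at 1.77, 1.57, 2.2 and 2.01 in small intestine and 194, 156, 204 and 195 in colon (log2 -6.02, SE 0.20, adjusted p = 9.8e-15). Hoxa10 ran at 0, 1.05, 1.47 and 2.01 in small intestine and 74.6, 64.6, 56.6 and 57.9 in colon (-5.02). Hoxd13 ran at 0, 0.525, 0 and 0 in small intestine and 12.3, 12.3, 21.9 and 23.9 in colon (-4). Hoxa11os, antisense to Hoxa11, ran at 0, 0.525, 0 and 0 in small intestine and 26.6, 40.1, 50.1 and 41.6 in colon (-5.16), a level that is uncertain because the sources used here do not say whether counting used the strand. Within groups 5 to 9 the difference was 0.76 for Hoxa5, 2.44 for Hoxa7 and 3.49 for Hoxa9 in favour of the colon, and 1.46, 2.41 and 2.89 for Hoxb5, Hoxb6 and Hoxb9. The call of Hoxa5 was lost without mouse 1, 3 or 4 (adjusted p 0.0688 to 0.176). Hoxb4 and Hoxb7 were not called (-0.12, SE 0.29, and -0.18, SE 0.36), and Hoxc10 had few counts in either tissue. Hoxb13 was not above 3.15 on average in any of the 13 other tissues.

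Stem cell and Wnt target genes did not move to 1 side, with 3 of 15 higher in each tissue and 3 against 5 under equal sums. With 9 of the 15 not called, their share of calls was near the 39.2% over all genes. Olfm4, which marks stem cells of the small intestine, ran at 764, 905, 668 and 649 in small intestine and 14.3, 10.0, 27 and 16.4 in colon (log2 5.45, SE 0.19, adjusted p = 1.8e-14). Axin2 and Smoc2 were higher there by 1.89 and 0.88. Sox9 was higher in the colon, at 68.2, 67.2, 67.4 and 72.5 in small intestine and 162, 224, 175 and 164 in colon (-1.37). Proliferation genes were higher in the small intestine in 20 of 26 cases and in the colon in 0 (median 0.89), and in 16 and 0 under equal sums. DESeq2 called 14 of the 26. The means of both guts lay within the range of the 13 other tissues for all 26. The proliferation marker Mki67 ran at 131, 129, 114 and 116 in small intestine and 22.5, 40.1, 33.4 and 30.2 in colon (log2 1.95, SE 0.15, adjusted p = 3.3e-09). Top2a, the topoisomerase of dividing cells, held 192 ± 20.3 in small intestine and 54.7 ± 7.9 in colon (SD, n = 4). The mitotic kinase gene Plk1, at 8.86, 7.87, 5.86 and 7.05 in small intestine and 11.2, 6.68, 3.86 and 11.3 in colon, and the replication genes Rrm2 and Mcm2 were not called (-0.056, 0.066 and 0.034, with SEs of 0.33, 0.13 and 0.23).

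Genes for the use of short-chain fatty acids and for ketone synthesis were higher in the colon in 9 of 15 cases and in the small intestine in 3 (median -0.34). Under equal sums these counts were 10 and 2. The means of both guts lay within the range of the 13 other tissues for all 15. The butyrate carriers Slc5a8 and Slc16a1 differed by -1.43 and -1.21, and Acads, the short-chain acyl dehydrogenase, by -1.73. The medium-chain enzyme Acadm was near level, at 171, 171, 178 and 161 in small intestine and 120, 130, 153 and 135 in colon, and reversed its sign under equal sums (0.34 and -0.027). Its call was lost without mouse 1 (adjusted p = 0.071).

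Xenobiotic enzymes were higher in the small intestine in 33 of 49 cases and in the colon in 10 (median 1.19). Cyp3a11, a cytochrome of drug oxidation, ran at 159, 259, 113 and 201 in small intestine and 6.13, 6.68, 6.43 and 10.1 in colon. Its paralog Cyp3a25 ran at 73.5, 105, 69.6 and 84.6 in small intestine and 3.07, 0, 0 and 5.04 in colon. The alcohol dehydrogenase gene Adh6a held 301 ± 35.1 in small intestine and 9.09 ± 2.2 in colon (SD, n = 4). Members of the same families stood on opposite sides. Cyp2c55 was higher in the colon, at 60.2, 66.1, 27.1 and 28.2 in small intestine and 740, 735, 379 and 693 in colon (log2 -3.85, SE 0.14, adjusted p = 5e-14), whereas Cyp2c66 was higher in the small intestine (3.62). Sult1a1, a phenol sulfotransferase, ran at 14.2, 20.5, 25.6 and 24.2 in small intestine and 340, 344, 289 and 283 in colon (log2 -3.86, SE 0.15, adjusted p = 1.9e-13), whereas Sult1b1 was higher in the small intestine (1.84). The glutathione transferases divided in the same manner, with Gsta1 at 3.55 and Gstm1 at -1.48. Cyp2d34, of the family with many drug-metabolising members, ran at 3.54, 2.62, 4.4 and 0 in small intestine and 124, 101, 100 and 118 in colon.

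Junction, keratin and lectin genes were divided 10 against 10 among 33, and 9 against 20 on the colon side under equal sums. Lgals2, a galectin, ran at 1947, 2378, 1923 and 1931 in small intestine and 28.6, 25.6, 30.8 and 26.4 in colon (log2 6.14, SE 0.10, adjusted p = 5.8e-19). The microvillus protein gene Vil1 held 1214 ± 38.3 in small intestine and 245 ± 34.1 in colon (SD, n = 4), a difference of 2.32. Lgals3 (-1.66), the tight junction genes Cldn8 and Cldn3 (-3.01 and -0.97) and the tetraspanin Tspan1 (-3.68) were higher in the colon. Lgals4, at 2534, 2982, 2786 and 2667 in small intestine and 2597, 2592, 2451 and 2747 in colon, was not called (0.077, SE 0.085). Tgm3, a transglutaminase that crosslinks proteins, ran at 0, 4.72, 1.47 and 4.03 in small intestine and 324, 297, 346 and 351 in colon (log2 -6.83, SE 0.29, adjusted p = 6.6e-13) and had the largest difference among the named genes on the colon side.

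Immune cell genes were called in varying shares. Of the B cell genes 1 of 18 was called, of the macrophage and dendritic cell genes 2 of 17, of the mast cell and eosinophil genes 1 of 6 and of the MHC class II genes 4 of 11, the last near the 39.2% called over all genes and the others below it. These counts rest on the scaling, since under equal sums 6 B cell and 7 macrophage genes were called higher in the colon, and 1 MHC class II gene in each direction. Summed B cell signals were 194 to 228 in small intestine and 219 to 271 in colon, against a median of 249 in the 13 other tissues, so the small intestine values lay below that median and the colon values on both sides of it. Plasma cell genes were higher in the small intestine in 6 of 14 cases and in the colon in 3 (median 0.35), and in 3 and 5 under equal sums (median -0.02). Their summed signals were 7241 to 10330 in small intestine and 5836 to 7262 in colon, between the median of 996 and the highest value of 17802, in spleen, of the 13 other tissues. Igha, the IgA heavy chain, ran at 2402, 2726, 2682 and 2054 in small intestine and 1750, 1545, 2156 and 2002 in colon (0.41, and 0.033 under equal sums), and Jchain held 635 ± 112 in small intestine and 462 ± 28.4 in colon (SD, n = 4). Among lambda light chain genes, Iglc1 ran at 669, 2358, 1877 and 447 in small intestine and 230, 410, 226 and 154 in colon, so that mice 2 and 3 stood above mice 1 and 4 in the small intestine. T cell and intraepithelial lymphocyte genes were higher in the small intestine in 6 of 26 cases and in the colon in 1 (5 and 6 under equal sums). The 6 include Ccl25, the epithelial chemokine that draws gut-homing lymphocytes, at 512, 608, 544 and 513 in small intestine and 8.18, 7.8, 11.6 and 16.4 in colon (log2 5.56, SE 0.16, adjusted p = 1.3e-15), and the granzymes of cytotoxic cells. Gzma ran at 23.9, 67.7, 34.4 and 55.4 in small intestine and 4.09, 5.57, 3.86 and 10.1 in colon. Gzmb ran at 15.9, 31, 17.6 and 25.2 in small intestine and 3.07, 2.23, 0 and 3.78 in colon. The T cell receptor component Cd3e, at 0.886, 8.4, 4.4 and 8.05 in small intestine and 4.09, 6.68, 10.3 and 8.82 in colon, was not called, and Trac was the 1 higher in the colon (-0.7).

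Interferon-stimulated genes were higher in the small intestine in 21 of 33 cases and in the colon in 1 (median 0.65), and in 15 and 3 under equal sums. Ifit1 and Isg15, antiviral effectors, differed by 1.5 and 1.45, and Ifit1 ran at 258, 401, 256 and 280 in small intestine and 95, 138, 111 and 76.8 in colon. Irf7, at 120, 116, 96.7 and 101 in small intestine and 107, 94.7, 100 and 120 in colon, was not called (0.039, SE 0.12).

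Genes of the gut wall were on the colon side. Smooth muscle genes were higher in the colon in 16 of 19 cases and in the small intestine in 0 (median -1.60), and those of fibroblasts and stroma in 16 of 22 and 1 (median -1.07). Enteric neuron and glia genes were higher in the colon in 11 of 18 and the interstitial cells of Cajal list, the pacemaker cells, in 5 of 7, with 0 on the other side in both. Among contractile genes, Actg2 ran at 93.9, 129, 58.6 and 83.6 in small intestine and 737, 788, 659 and 591 in colon (log2 -2.96, SE 0.12, adjusted p = 1.8e-13). Cnn1 held 58.3 ± 9.56 in small intestine and 492 ± 44.4 in colon (SD, n = 4). Des held 75.6 ± 19.2 in small intestine and 393 ± 25.9 in colon (SD, n = 4). Mylk, the myosin light chain kinase gene, ran at 253, 295, 193 and 282 in small intestine and 261, 305, 261 and 280 in colon and was not called (-0.13, SE 0.097). Col1a1 and Dcn, matrix genes, differed by -1.29 and -1.09, and Grem1, a BMP inhibitor, was the 1 stromal gene on the other side (1.16). The pacemaker genes Kit and Ano1 differed by -1.74 and -2.99, and Thbs4 by -4.01. Calb2 and Uchl1, of neurons, differed by -2.08 and -1.56. Genes of liver, skeletal muscle and red cells lay on the same side by less. Of 15 liver genes 10 were higher in the colon (median -0.67), of 10 skeletal muscle genes 7 (median -0.60) and of 7 red cell genes 5 (median -0.54), and the means of both guts lay within the range of the 13 other tissues for 12, 10 and 7 of them. This held for 8 of 19 smooth muscle, 20 of 22 fibroblast, 7 of 7 Cajal cell and 13 of 18 neuron and glia genes. The part of such shared levels in the wall genes was not tested.

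Endothelial genes were called in 5 of 17 cases, against 39.2% over all genes. Of these, 2 were higher in the small intestine and 3 in the colon, though 0 and 4 under equal sums. The means of both guts lay within the range of the 13 other tissues for 15 of the 17. Oxidative phosphorylation genes were called in 13 of 26 cases, 12 higher in the small intestine and 1 in the colon, though 6 and 12 under equal sums. A nuclear and a mitochondrial RNA were higher in the small intestine. Malat1, a nuclear RNA, ran at 3897, 3651, 4158 and 3847 in small intestine and 534, 519, 635 and 742 in colon (2.69). The mitochondrial ribosomal RNA mt-Rnr2 ran at 91599, 76584, 80535 and 76841 in small intestine and 11380, 11343, 10983 and 10709 in colon (2.87). The 13 other tissues held 565 to 7405 and 6792 to 55487. Their part in the other differences was not tested.

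Pancreatic enzyme transcripts are set apart because they moved with single libraries. Their summed signal was 4850, 1643, 1523 and 673 in small intestine and 582, 489, 631 and 6187 in colon, so the colon of mouse 4 held more than any small intestine library. The chymotrypsinogen Ctrb1 ran at 515, 95.5, 143 and 31.2 in small intestine and 1.02, 1.11, 0 and 776 in colon. The lipase gene Pnlip ran at 245, 65.1, 62.3 and 14.1 in small intestine and 0, 1.11, 0 and 422 in colon. Of 20 such genes 13 were called higher in the small intestine and 1 in the colon, with libraries that overlapped in all but 1 case, and of the 20 edgeR called 3 and DESeq2 16. Without mouse 4 the differences of Ctrb1 and Pnlip were 6.89 and 6.3 in place of 4.02 and 3.52, and without mouse 1, 2 or 3 neither was called (adjusted p 0.0685 to 0.139 and 0.102 to 0.237). In the colon of mouse 4, 22 genes stood above 20 and over 4-fold above each other colon library, and 19 of these were in the pancreatic list. The other 3 were Tff2, Gp2 and Reg1. Reg1 is counted above in the Paneth cell and antimicrobial list, and its colon signal was 162.5 in mouse 4, with 8.997 the next highest. Sycn, which encodes a protein of secretory granules, did not follow the enzymes. It ran at 82.4, 34.6, 22 and 8.05 in small intestine and 355, 270, 365 and 513 in colon (log2 -3.71, SE 0.35, adjusted p = 6.3e-08), and was high in all 4 colon libraries. Without mouse 4 its difference was -3. Cela1, an elastase, was above the other tissues' median of 7.39 in every library, at 541, 160, 122 and 39.3 in small intestine and 169, 154, 157 and 737 in colon, and was called higher in the colon only without mouse 1 (-1.5, adjusted p = 0.0308). Genes of the stomach list, mostly Tff2 by signal, were high in other libraries. Tff2 ran at 648, 40.9, 133 and 1259 in small intestine and 5.11, 2.23, 5.14 and 32.7 in colon. Gkn1 and Gkn2, of stomach surface cells, ran at 6.2, 0, 0 and 21.1 and at 7.97, 0.525, 0 and 29.2 in small intestine and at 0 in all colon libraries. Among small intestine libraries, that of mouse 4 held the least pancreatic signal and the most of Tff2, Gkn1 and Gkn2. That of mouse 1 held the most pancreatic signal and the next most of these genes. In mouse 3 Tff2 stood at 133 with Gkn1 and Gkn2 at 0. The source of the Tff2 signal was not tested. In the LPS mice the summed pancreatic signal was 352 to 840 in small intestine and 261 to 516 in colon. Of the 20 pancreatic genes, 18 were called higher in the small intestine of those mice and 2 in the colon.

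**Figure D3:**
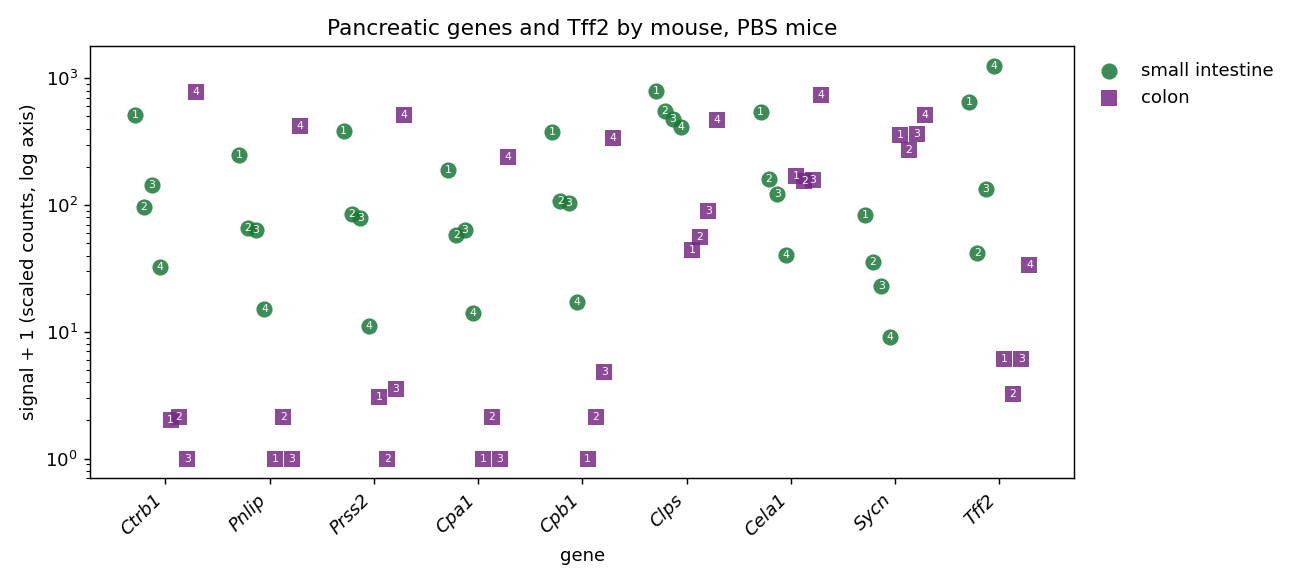
Signal + 1 on a log axis of 8 pancreatic genes and of Tff2 in each small intestine (circles) and colon (squares) library, with the mouse number written in each symbol. The colon of mouse 4 lies among or above the small intestine libraries for Ctrb1, Pnlip and the other digestive enzymes, at 776 against 0 to 1.11 in the other colons for Ctrb1, whereas Sycn is high in all 4 colon libraries.

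The same tissue comparison was made in mice 5 to 8, which had received LPS. Of 13068 genes tested, 4367 were called there (33.4%). Of 5163 genes called in PBS mice and tested in LPS mice, 2884 (55.9%) were called in the same direction, which is 66.0% of the calls in LPS mice, and 91 in the opposite one. Of 574 with a difference of at least 4-fold in PBS mice, 527 were called in the same direction and 1 in the opposite. The change of the tissue difference with LPS was tested itself over the 16 libraries and was called for 1163 of 13559 genes (8.58%), in 818 of them toward the colon and in 345 toward the small intestine. Of 917 such genes that were also called in PBS mice, the difference was smaller after LPS or turned in 840, in a comparison that shares the PBS libraries on both sides.

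Digestive genes lost part of their difference. For Lct the small intestine signals in LPS mice were 32.5, 51.8, 11.6 and 36.8 and the tissue difference fell from 6.87 to 3.31 (change -3.56, adjusted p = 9e-05). Plb1, a brush border phospholipase, ran at 5.42, 1.15, 4.08 and 9.78 in the small intestine of LPS mice against 92.1, 74.5, 96 and 73.5 in PBS mice (change -4.03, adjusted p = 3.6e-05), and the sugar transporter family member Slc5a4b showed a like change (-3.98, adjusted p = 6.1e-05). Of 19 brush border hydrolases tested, 16 were called for such a change, all toward the colon. Changes were called in other lists too, against 8.58% over all genes. Of 49 xenobiotic genes 27 were called toward the colon and 1 toward the small intestine. Of 19 smooth muscle genes 9 were called toward the small intestine and 0 toward the colon. Of 10 colon markers 3 were called toward the small intestine and 2 toward the colon. For 31 Paneth cell and antimicrobial genes these counts were 1 and 7. The single genes Muc2, Hoxb13, Insl5 and Defa24 were not called for a change. For Muc2 the difference was -3.72 in PBS and -3.63 in LPS mice, for Hoxb13 -6.02 and -6.06, for Insl5 -6.05 and -5.68 and for Defa24 6.02 and 5.68 (changes 0.092, -0.04, 0.37 and -0.34, with SEs of 0.16, 0.42, 0.46 and 0.15).

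The tissue difference of other genes changed as well, and some gained a difference that PBS mice did not show. The antiprotease genes Slpi and Wfdc18 were near level in PBS mice, with Slpi at 8.86, 5.77, 11 and 8.05 in small intestine and 9.2, 12.3, 15.4 and 7.56 in colon. In LPS mice Slpi ran at 9.03, 7.48, 8.16 and 13.8 in small intestine and 197, 215, 387 and 271 in colon (change -4.3, adjusted p = 4.4e-09), with Wfdc18 changing by -4.59. The changes toward the small intestine were led by Gml2 (fitted change 3.16, adjusted p = 0.0028), at 0 in all 8 PBS libraries and at 24.1, 20.7, 8.16 and 31.6 in the small intestine of LPS mice. It was followed by Reg2 (2.63, a call lost without mouse 2, 4 or 5, adjusted p 0.0614 to 0.0752), Nxpe2 (2.61) and Ufsp1 (2.6). In PBS mice alone Ufsp1 lost its tissue call without mouse 1 (adjusted p = 0.0577). Nxpe2 reached that place through its colon signals, 35.8, 57.9, 45 and 52.9 in PBS and 18.7, 24.1, 9.69 and 15.5 in LPS mice. Among interferon-stimulated genes, 18 of 33 tested were called as changed toward the colon and 1 toward the small intestine, Ifit1 among the former, whose tissue difference was 1.5 in PBS and -0.78 in LPS mice.

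**Figure D4:**
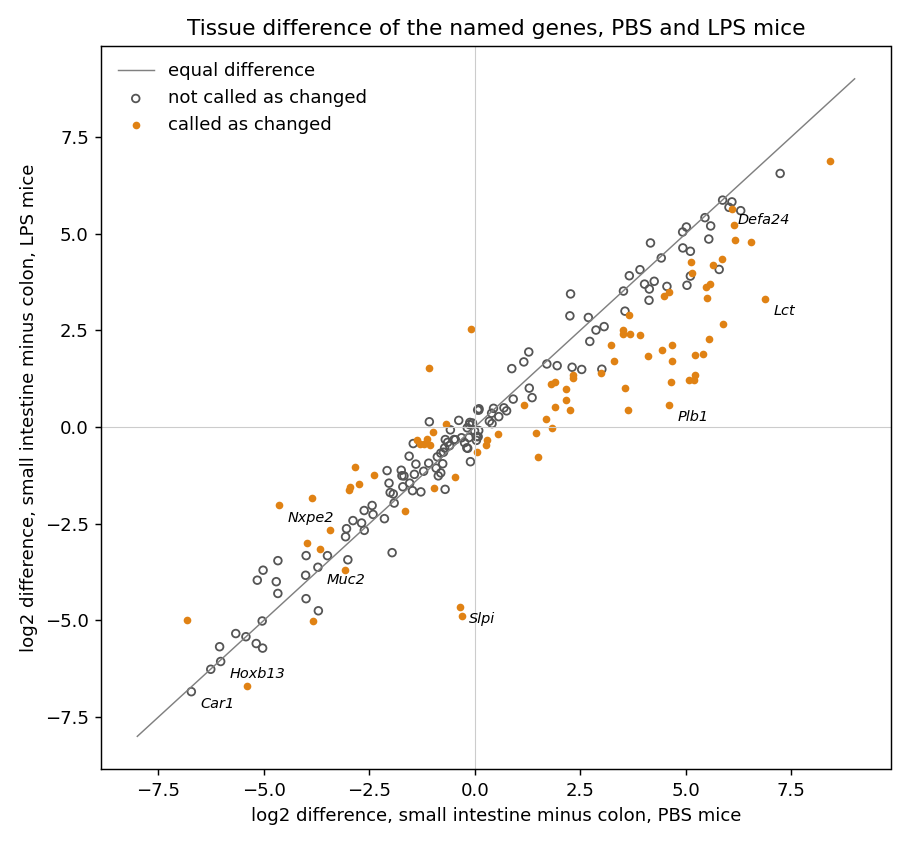
Tissue difference (log2, small intestine minus colon) in PBS mice on the x axis and in LPS mice on the y axis for the named genes, with the diagonal of equal differences. Points filled in orange were called as changed between the PBS and LPS mice, among them Lct at 6.87 and 3.31 and Slpi at -0.35 and -4.64, while Muc2, Hoxb13 and Defa24 lie near the diagonal.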

How the data were processed

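RNA of 180 libraries (15 tissues of 12 mice) was read as 3′ tags with 10-base molecular identifiers. The submitters' processing notes name FastQC, MultiQC, edgeR and the mm10 build, without versions. The aligner and the treatment of molecular identifiers are not given in the sources used here. The deposited signal is named CPM by the authors, but library totals differ, which CPM totals would not. They are whole counts times 1 factor per library, and whole counts came back for 100% of values within 0.1 count.

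Here log2(signal + 1) was fitted with limma 3.58.1 (trend, R 4.3.3) over the 8 libraries of PBS mice, with the mouse as a block, for the 13249 of 13820 genes that reached a signal of 1 in 4 or more libraries. The p-values were adjusted by Benjamini-Hochberg over all of them. With 3 residual degrees of freedom, the spread was moderated across genes. Numbers pair libraries because both tissues came from 1 mouse, per the labels. Deviations of same-numbered libraries correlated at -0.03, 0.0142, 0.00596 and -0.0884. LPS mice were fitted alike, and the change of the tissue difference was an interaction over 16 libraries. Alternatives were edgeR 4.0.16 and DESeq2 1.42.0 on the recovered counts, other scalings, pseudocount 0.25, no filter, no block, all 24 libraries (with the 4 mice of strain B6.129S-Tnftm1Gkl/J given LPS) and leaving out each mouse.

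Named genes had an adjusted p below 0.05, a mean signal of at least 10 in the higher tissue and no overlap between tissues, and were the largest differences, the most abundant genes of at least 4-fold difference and the largest of each list. List members on the opposite side, uncalled members that complete a description, Hox genes, regional transcription factors, guanylins, Fabp genes and the 4 largest interactions in each direction were named regardless, and some genes that meet this rule are not reported here. The comparison, the lists and the members were chosen with earlier results of these data known. The 42 lists hold textbook genes, and a list is described by counts and its median without a test. Of the symbols, 13772 were found in GENCODE M21. Upstream sequences come from RefSeq (GRCm38.p6).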

Additional observations from a re-analysis of the deposited data

Results flagged for a closer look

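In 400 groups of 4 libraries of named genes, 29 (7.25%) had a library whose gap to its nearest neighbour exceeded Dixon's critical share of the group's range, where chance flags about 1 in 20. Some groups, such as the pancreatic genes, were described because single libraries stood apart, and their genes move together. The share therefore cannot be read against that rate. The colon of mouse 3 stood above the other colons for the secreted products Mptx1 (6412, next 1516), Clca1 (4067, next 1813), Ang4 (753.2, next 132.6) and Retnlb (331.6, next 56.82), and below them for Cyp2c55 (379.2), Cdx2 (64.27) and Rrm2 (46.27). The colon of mouse 4 stood above the others for the summed pancreatic genes (6187), Ctrb1 (775.7), Cela1 (736.7), Pnlip (421.9), Reg1 (162.5), Tff2 (32.74) and Cyp3a11 (10.07), and below them for Foxa1 (28.96). The colon of mouse 2 was high for Tcf7l2 (135.9) and Slc6a20a (16.71), and that of mouse 1 low for Tff3 (933).

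Among small intestine libraries, that of mouse 2 was high for Lgals2 (2378), Oat (1015), the interferon-stimulated gene Ifit1 (401.1), Plin2 (140.2) and Mptx1 (67.72), and low for Lcn2 (140.7). That of mouse 1 was low for Slc7a9 (186). That of mouse 3 was high for Apob (434.5) and low for Slc9a3 (34.44), and that of mouse 4 was low for Acads (13.09) and high for Ufsp1 (9.06).

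The tissue difference itself differed between LPS and PBS mice, by the interaction test of limma, for the 4 named genes with the largest change in each direction. It moved toward the colon for Wfdc18 (-4.592), Slpi (-4.296), Plb1 (-4.026) and Slc5a4b (-3.985), and toward the small intestine for Gml2 (3.157), Reg2 (2.63), Nxpe2 (2.614) and Ufsp1 (2.598). The call of Reg2 was lost without mouse 2, 4 or 5 (adjusted p 0.0614 to 0.0752).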

How the results depend on the processing

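Of 2574 comparisons of 217 named genes with 12 alternatives, 2488 kept their direction and their side of the threshold, 51 lost the call in 18 genes, 8 gained one with the direction kept in 6 genes and 27 turned their sign in 17 genes. Of these 17, Mep1a and Acadm were called in the fit reported, and the others were not. With pancreatic genes removed and equal sums, 11 turned toward the colon: Mep1a (-0.077), Acadm (-0.027), Apobec1 (-0.329), Nr1h4 (-0.273), Slc9a3 (-0.11), Rrm2 (-0.301), Mcm2 (-0.321) and the 4 called there, Irf7 (-0.331), Lgals4 (-0.296), Slc12a2 (-0.278) and Tff3 (-0.275). With a pseudocount of 0.25 Hoxc10 turned (0.083). Leaving out each mouse gave values on both sides of 0 for 9 genes, not called in any of these fits except Cela1 without mouse 1 (adjusted p = 0.0308 by limma), from -0.044 to 0.135 for Irf7, -0.058 to 0.211 for Apobec1, -0.045 to 0.249 for Nr1h4, -0.226 to 0.167 for Asl, -0.49 to 0.076 for Hoxb7, -0.24 to 0.131 for Plk1, -0.226 to 0.178 for Mcm2, -1.499 to 0.458 for Cela1 and -0.853 to 0.404 for Reg2. The change with LPS, not called, ran from -0.353 to 0.483 for Hoxb13 and from -0.117 to 0.227 for Muc2. The equal sums scaling called 1672 genes higher in the small intestine and 4618 higher in the colon, against 2846 and 2346. DESeq2 on the recovered counts called 3106 genes, 1747 and 1359, against 5192 in all. It made 3104 of the main calls in the same direction (59.8%) and edgeR made 5038 (97.0%). The cause of the lower DESeq2 count was not tested. Without the replicate block, 5260 genes were called, 5083 of them shared, and the block changed the call of no named gene of the PBS comparison. In LPS mice 3868 genes were called without the block against 4367, and for the change with LPS 882 against 1163. Leaving out each mouse gave 4235 to 4597 genes in PBS mice (2310 to 2623 higher in the small intestine, 1905 to 2009 in the colon), 3308 to 3885 in LPS mice and 799 to 1046 for the change with LPS. Colon libraries are shallower, so 1 count there stands for a larger signal (1.02 to 1.29 against 0.525 to 1.01), and low colon levels are coarse.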

Other observations

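Adipocyte genes were called in 8 of 11 cases, 2 higher in the small intestine and 6 in the colon, and 0 and 8 under equal sums. Genes of stratified epithelium were called in 1 of 7 cases, on the colon side, against 39.2% called over all genes. For both lists the means of both guts lay within the range of the 13 other tissues for every gene tested.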
